A study of Mus musculus with 8 samples.

Results

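The miR-15/16 family is a group of miRNAs that share their seed, the bases near the 5′ end by which a miRNA recognises its target mRNAs. Its members on the TaqMan card were found by assay name as mmu-miR-16, mmu-miR-195, mmu-miR-322, mmu-miR-497, mmu-miR-15a and mmu-miR-15b, written below without the species prefix, and are 6 of the 375 miRNA assays of card A. Each was quantified in the ventral part of the lumbar cord, in RNA from 4 wild type FVB mice and 4 MLC/SOD1G93A mice at an age of 4 months. The MLC/SOD1G93A mice carry a mutant human SOD1 gene under the MLC promoter, which is specific for skeletal muscle, so the profiled tissue is not the one in which the promoter drives the transgene. The FVB mice are the age-matched control and are labelled wild type. The comparison asks whether mutant SOD1 in muscle goes along with other levels of these miRNAs in the spinal cord. The sources used here give 1 card per sample and do not state that RNA of several animals was pooled, and p-values measure the spread between these samples. The cord is a bulk tissue, in which fewer cells of a type and less RNA per cell cannot be told apart.

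Members of this family are known for holding back cell cycle genes such as cyclins and the survival gene Bcl2, and they rise in many tissues as cells leave the cell cycle. They are made from several loci, where they lie in pairs or larger clusters on a shared primary transcript. They are found in brain and spinal cord as in many other adult tissues. Of the wider group of related miRNAs, miR-103 and miR-107 lie in genes of coenzyme A synthesis.

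The mature sequences explain why the members are read as 1 family and why separate assays are needed. They are given from 5′ to 3′ as in RefSeq (GRCm38.p6), with bases 2 to 8, the seed, in capitals.

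miR-15a: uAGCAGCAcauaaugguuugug
miR-15b: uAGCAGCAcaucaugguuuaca
miR-16: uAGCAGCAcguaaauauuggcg
miR-195: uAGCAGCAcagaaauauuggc
miR-322: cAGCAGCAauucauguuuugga
miR-497: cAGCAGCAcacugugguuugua

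All 6 matched an entry, and all 6 have the seed AGCAGCA, which 10 of the 1679 mature mouse miRNAs of the table carry (0.596%). The members differ in the first base and in the 3′ part, outside the seed. miR-16 and miR-195 are the closest pair, with 2 differences over 21 positions and none in the first bases up to the end of the seed, whereas miR-16 and miR-497 differ at 11 of 22 positions. The last 6 bases, where a stem-loop primer for reverse transcription usually anneals, are distinct in each of the 6. For miR-16 and miR-195 this rests only on length. The last 6 bases of miR-195 also stand in miR-16, 1 base before its end. Whether the assays read each other's miRNA was not tested.

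The wider group was taken as a list for comparison. miR-503 lies beside miR-322 and differs from the family at the last base of the seed, and in miR-103 and miR-107 the shared letters lie 1 base closer to the 5′ end.

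miR-503: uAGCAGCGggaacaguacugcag
miR-103: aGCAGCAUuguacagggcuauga
miR-107: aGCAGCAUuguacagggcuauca

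Of the family, miR-16 has 2 genes. Mir16-1 lies with Mir15a on chromosome 14 (minus strand, mature miR-15a at chr14:61632075-61632096), where the mature sequences are 117 bases apart and both genes lie inside the long noncoding gene Dleu2. Mir16-2 lies with Mir15b on chromosome 3 (plus strand, mature miR-15b at chr3:69009775-69009796), where 121 bases separate the mature sequences and both genes lie inside the protein-coding gene Smc4. The card has 1 miR-16 assay, and the mature miR-16 of both genes is identical, so the assay cannot tell which locus it reads. Mir497 and Mir195a lie 310 bases apart on chromosome 11 (plus strand, mature miR-497 at chr11:70234730-70234751) and overlap no other gene of the table. Mir322 lies on chromosome X (minus strand, mature miR-322 at chrX:53054306-53054327) inside the noncoding gene C430049B03Rik, with Mir503 256 bases away.

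The cards of wild type 1 and of sample 7a in the MLC/SOD1G93A group stood apart from the others, and the comparisons between the groups are given with and without them. In wild type 1 the 190 miRNAs with a value in every sample had a mean Ct 11.6 cycles above the mean of U6, a small nuclear RNA, and in sample 7a it was 11.8 cycles above, whereas it was 9.67 to 10.4 cycles above in the other 6. The mean U6 Ct was 17.45 in wild type 1, 16.88 in sample 7a and 17.96 to 18.50 in the other 6. The mean Ct of the 190 miRNAs was 29.00, 28.69 and 28.02 to 28.87. A Ct (threshold cycle) is the PCR cycle at which the signal of an assay crosses a set level, and each cycle less means roughly a doubling of the amount. The 4 U6 wells of a card lay within 2.14 cycles in sample 7a, 1.97 in sample 8a, 1.05 in sample 6a and 0.39 to 0.78 in the other 5, so a wide range was not particular to 7a. Sample 7a was the only card with a signal for the plant control miR159a, at a Ct of 29.85. The cards measured 239 to 256 of the 375 miRNAs at a Ct of at most 35. The labelled tissue was checked by its markers, of which the 4 listed neuronal miRNAs (miR-124, miR-9, miR-128a and miR-218), the 3 oligodendrocyte miRNAs and the 3 Hox cluster miRNAs of the caudal cord were measured in all 8 samples. The 3 listed muscle miRNAs were also measured in all 8 samples, with a summed level relative to the mean of all miRNAs of 3.90 to 5.31 in wild type and 3.76 to 5.41 in MLC/SOD1G93A samples on the log2 scale.

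All 6 members were measured in all 8 samples, and miR-16 was by far the most easily detected. miR-16, the member with 2 genes, had Ct values of 22.90, 22.87, 22.94 and 22.13 in wild type 1 to 4, and of 22.97, 23.03, 22.85 and 22.38 in MLC/SOD1G93A samples 5a to 8a. By mean Ct it was the 7th lowest of the 190 miRNAs with a value in every sample. The 2 groups lay over each other, and all 8 values fell within 0.90 cycles.

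miR-195, the closest relative of miR-16 in sequence, came next with a Ct from 26.41 to 27.96 in wild type and from 26.61 to 27.67 in MLC/SOD1G93A samples. miR-15b followed, with 28.62 to 29.90 and 28.98 to 29.69. In each of the 8 samples miR-16 was detected before miR-195, by 3.58 to 5.06 cycles, and miR-195 before miR-15b, by 1.94 to 2.45 cycles.

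The other 3 members were close to each other. miR-15a, the partner of miR-16 on chromosome 14, had Ct values of 30.92, 29.49, 29.06 and 28.92 in wild type 1 to 4, and of 30.68, 30.49, 31.97 and 29.98 in samples 5a to 8a. Wild type 2 to 4 lay below all MLC/SOD1G93A samples, while wild type 1 lay above 3 of them. miR-497, the partner of miR-195 on chromosome 11, had Ct values of 32.40, 29.00, 28.74 and 28.86 in wild type and of 31.02, 30.64, 30.71 and 28.94 in MLC/SOD1G93A samples. Its highest value was wild type 1, more than 3 cycles over the other wild type samples, and sample 8a fell among those. miR-322, the member on chromosome X, had Ct values of 32.38, 31.42, 30.00 and 30.39 in wild type and of 32.03, 31.98, 31.14 and 30.26 in MLC/SOD1G93A samples, with no separation of the groups. In the order of mean Ct, miR-497 had a higher Ct than miR-15b in 5 of 8 samples, miR-15a a higher one than miR-497 in 5 of 8 and miR-322 a higher one than miR-15a in 7 of 8, so these neighbours were not ordered in every sample.

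**Figure D1:**
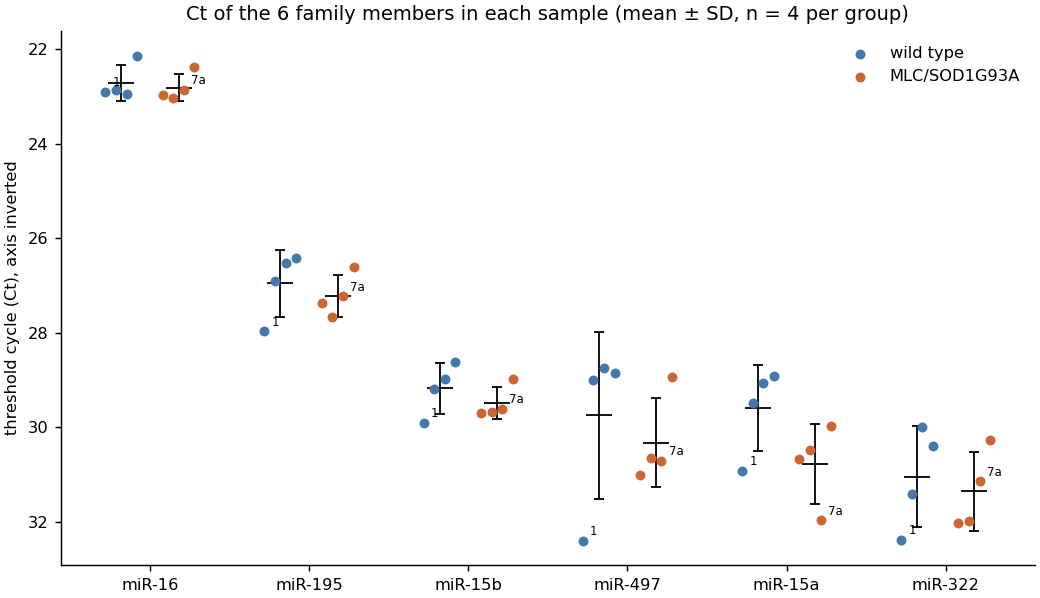
Ct of each family member (vertical axis, cycles, inverted so that more miRNA is higher) in 4 wild type and 4 MLC/SOD1G93A samples; each point is 1 sample, black bars give mean ± SD, and wild type 1 and sample 7a are marked. miR-16 lies between 22.13 and 23.03 in all 8 samples, and the 2 groups overlap for every member.

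Taken as amounts that double with each cycle, which assumes that the assays are equally efficient, miR-16 made up 87.8% to 95.7% of the summed family in wild type and 92.3% to 94.1% in MLC/SOD1G93A samples. miR-195 made up 2.87% to 7.34% and 3.77% to 4.92%, miR-15b 0.748% to 1.34% and 0.865% to 0.951%, and miR-15a 0.369% to 1.26% and 0.168% to 0.534%. miR-195 was detected 2.09 to 4.44 cycles before miR-497 in each sample, so these partners from 1 transcript were far from equal in signal. miR-16 was detected 6.03 to 7.0 cycles before miR-15b. Its assay cannot tell its genes apart, so this gap may not be that of 1 transcript alone. Differences in assay efficiency were not tested.

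To compare the groups, the Ct of each miRNA was subtracted from that of a reference in the same sample, which gives a level on the log2 scale. With the mean of the 4 U6 wells as the reference, all 6 members had lower mean levels in MLC/SOD1G93A than in wild type samples, and none passed the test. The log2 changes were -1.28 for miR-15a, -0.68 for miR-497, -0.42 for miR-15b, -0.40 for miR-322, -0.37 for miR-195 and -0.20 for miR-16, and limma gave an adjusted p of 0.975 for each. Of all 227 miRNAs tested, 77.5% had a negative change on this scale and their median change was -0.31, beside a median of -0.41 for the 6 members. With Benjamini-Hochberg adjustment, limma called 0 of the 227 miRNAs. At an unadjusted p under 0.05, 5 were lower (2.20%) and 1 higher (0.441%), and 0 of the 6 members were among them. The groups overlapped for each member, while 3 of all miRNAs were lower (1.32%) and 1 higher (0.441%) without overlap.

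The level of miR-15a relative to U6 was -13.47, -11.29, -10.62 and -10.78 in wild type 1 to 4, and -12.18, -11.99, -15.09 and -12.02 in samples 5a to 8a. The lowest value of each group was the card that stood apart. The change of -1.28 had a standard error of 0.78 and a 95% interval from -2.92 to 0.36 (two-sided exact permutation test over 70 assignments of the samples, p = 0.314).

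The average Ct of the 190 miRNAs with a value in every sample, called the global mean here, gave changes from -0.33 to 0.15 for 5 of the 6 members. miR-15a lay outside this range, with levels of -1.92, -1.01, -0.95 and -0.90 in wild type 1 to 4 and of -1.90, -1.62, -3.28 and -1.71 in samples 5a to 8a. Wild type samples had a mean level of -1.19 ± 0.48 (SD, n = 4) and MLC/SOD1G93A samples one of -2.12 ± 0.78 (SD, n = 4). Wild type 2 to 4 lay above all MLC/SOD1G93A samples, and wild type 1 lay among them. The log2 change was -0.93 with a standard error of 0.41 and a 95% interval from -1.85 to -0.01, which is 1.91-fold lower. Its unadjusted p was 0.0476 and its adjusted p 0.515 in limma, and the two-sided exact permutation test gave p = 0.114, where 0.0286 is the smallest that 4 against 4 samples allow.

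At an unadjusted p under 0.05 and relative to the global mean, 13 of the 227 miRNAs had lower (5.73%) and 8 had higher levels (3.52%), limma called 0 after adjustment, and miR-15a was 1 of the 13. Without overlap of the groups, 5 miRNAs were lower (2.20%) and 5 higher (2.20%), and 0 of the members were among them. By size, the change of miR-15a was the 7th lowest of the 227. A negative change was found for 5 of the 6 members and for 46.3% of all 227. The median change of all 227 was 0.04 and that of the 6 members -0.06. The changes of the other members were 0.15 for miR-16, -0.02 for miR-195, -0.05 for miR-322, -0.07 for miR-15b and -0.33 for miR-497, with exact permutation p from 0.429 to 0.943. The 95% intervals were -0.40 to 0.71 for miR-16, -0.53 to 0.50 for miR-195 and -0.51 to 0.38 for miR-15b. The interval of miR-322 was -0.94 to 0.84 and that of miR-497 -1.76 to 1.11, so changes of nearly 1 log2 unit lay within them.

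**Figure D2:**
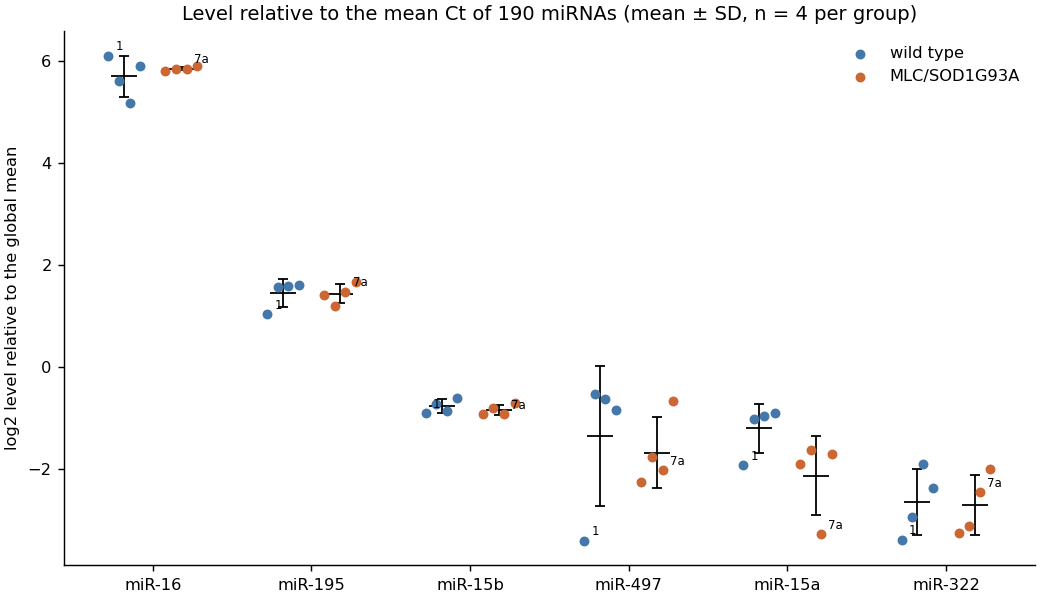
Log2 level of each family member relative to the global mean (vertical axis, log2 units) in 4 wild type and 4 MLC/SOD1G93A samples; each point is 1 sample, black bars give mean ± SD, and wild type 1 and sample 7a are marked. The MLC/SOD1G93A values of miR-16 lie between 5.81 and 5.89, and those of miR-15a between -3.28 and -1.62.

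For miR-16 itself the MLC/SOD1G93A samples lay closer together than the wild type samples. Relative to the global mean, its level was 6.10, 5.61, 5.17 and 5.89 in wild type 1 to 4, and 5.81, 5.84, 5.84 and 5.89 in samples 5a to 8a. The MLC/SOD1G93A samples lay within the range of the wild type samples. The SD was 0.40 and 0.03, and the difference between the SDs was not tested.

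miR-15b had the most even level of the family. Its pooled SD within groups relative to the global mean was 0.120, the smallest of the 190 miRNAs, whose median was 0.427. miR-195 had 0.235 (rank 21) and miR-16 0.286 (rank 36). miR-322, miR-15a and miR-497 were in the more variable part of the 190, with 0.621 (rank 147), 0.647 (rank 154) and 1.09 (rank 181). miR-15b and miR-15a differ at 4 of 22 positions and had mean Ct values of 29.33 and 30.19. The lowest miR-15a level of each group was on a card that stood apart, -1.92 in wild type 1 and -3.28 in sample 7a. The cause of the spread of miR-15a was not tested.

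Since the members of a sample share the card and its references, each was also set against miR-16 of the same sample. The level of miR-15a relative to miR-16 was -8.02, -6.62, -6.12 and -6.79 in wild type 1 to 4, and -7.71, -7.46, -9.12 and -7.60 in samples 5a to 8a. Wild type 1 again lay among the MLC/SOD1G93A samples, and the other 3 wild type samples lay above all of those. The log2 change was -1.08 with a standard error of 0.48 and a 95% interval from -2.15 to -0.02 (unadjusted p = 0.0469 and adjusted p = 0.803 in limma). The two-sided exact permutation test gave p = 0.114. The changes of the other 4 relative to miR-16 were -0.17 for miR-195, -0.21 for miR-322, -0.22 for miR-15b and -0.48 for miR-497, with exact permutation p from 0.371 to 0.686. Against miR-16, 226 miRNAs were tested, of which 11 had lower (4.87%) and 3 had higher levels (1.33%) at an unadjusted p under 0.05, and limma called 0 after adjustment. miR-15a was 1 of the 11. All 5 members had a negative change, as did 62.8% of all 226. Without overlap of the groups, 6 miRNAs were lower (2.65%) and 6 higher (2.65%), and 0 of the members were among them. The median change of all 226 was -0.11.

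**Figure D3:**
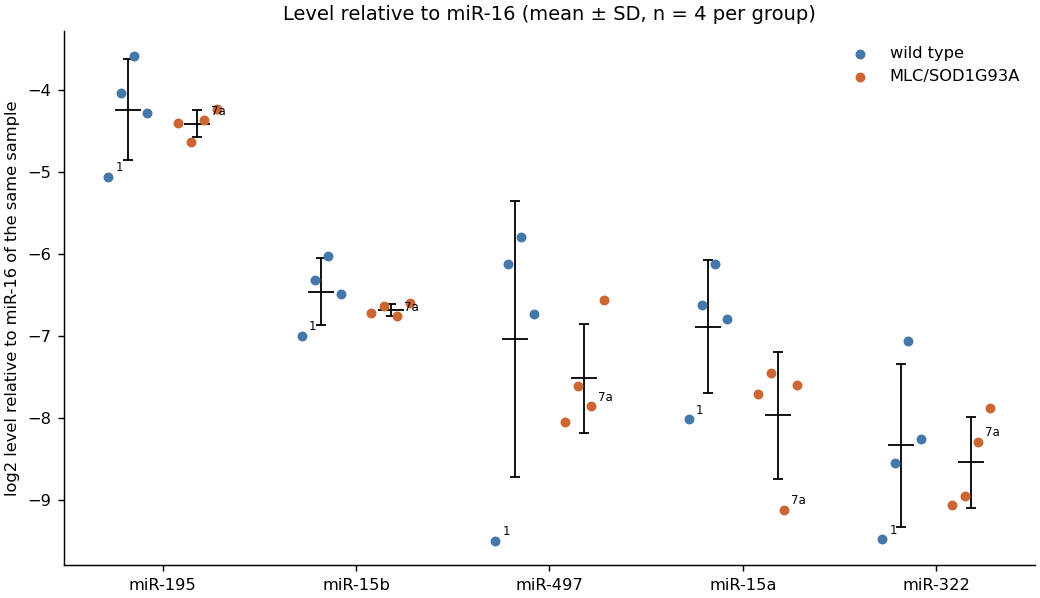
Log2 level of 5 family members relative to miR-16 of the same sample (vertical axis, log2 units); each point is 1 sample, black bars give mean ± SD of 4 samples, and wild type 1 and sample 7a are marked. Wild type 1 is the lowest wild type sample for each of the 5 members.

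All 15 pairs of members were compared in this way, and none had a p under 0.05. The smallest p was that of miR-15a against miR-195, whose Ct differed by 2.51 to 2.96 cycles in wild type and by 2.82 to 4.75 cycles in MLC/SOD1G93A samples (two-sided exact permutation test, p = 0.0571). The groups overlapped by 1 wild type sample. In wild type samples miR-15a lay 0.43 ± 0.41 cycles (SD, n = 4) above miR-15b, and in MLC/SOD1G93A samples 1.29 ± 0.72 cycles (SD, n = 4) above it (exact permutation test, p = 0.114). The distance between miR-15b and miR-195 was 2.22 ± 0.21 and 2.27 ± 0.18 cycles (SD, n = 4 each).

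**Figure D4:**
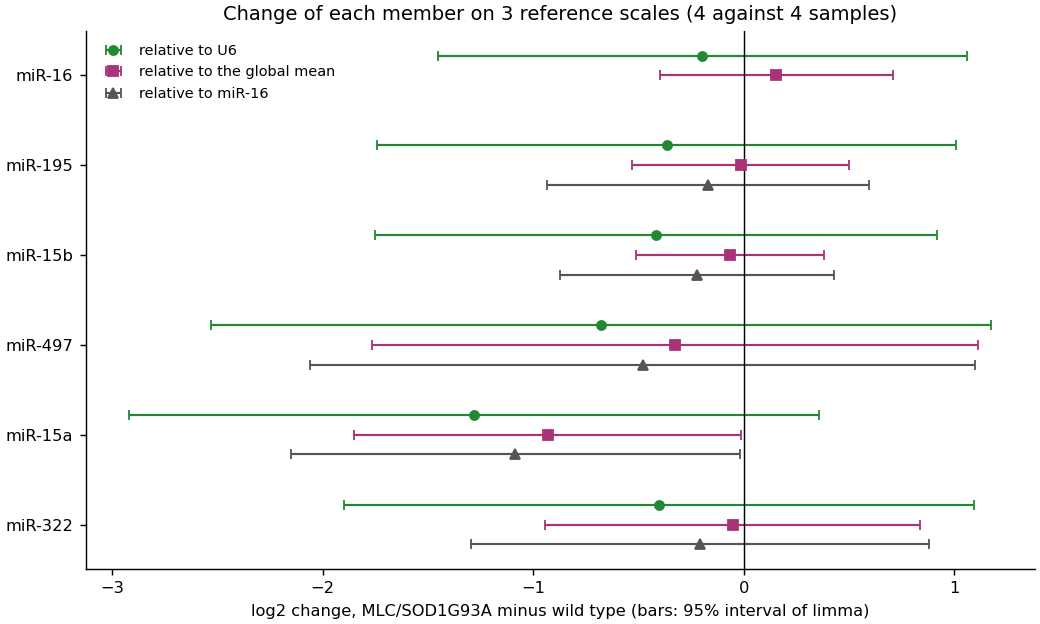
Log2 change of each member (horizontal axis, MLC/SOD1G93A minus wild type, 4 against 4 samples) relative to U6, the global mean and miR-16; points are the changes and bars the 95% intervals of limma. The miR-15a intervals relative to the global mean and to miR-16 end at -0.01 and -0.02, and every other interval includes 0.

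The size of the changes depended on the cards that stood apart, and relative to U6 this held for several members. With wild type 1 left out, miR-15a had a log2 change of -1.93 relative to U6, -1.18 relative to the global mean and -1.46 relative to miR-16, with adjusted p of 0.130, 0.198 and 0.170 in limma. The 3 remaining wild type samples did not overlap the MLC/SOD1G93A samples on any of these scales (exact permutation test over 35 assignments, p = 0.0571, 0.0571 and 0.0286). The smallest p that 35 assignments allow is 0.0286. Wild type 1 was the only wild type sample lying among the MLC/SOD1G93A samples on each scale. Leaving it out therefore fixed the lack of overlap in advance, and no conclusion is drawn from it. Of all miRNAs tested without wild type 1, 20.8% were lower without overlap relative to U6, 8.23% relative to the global mean and 10.9% relative to miR-16. miR-15b was also without overlap relative to U6 and to miR-16, and miR-497 relative to U6. Relative to U6, leaving out wild type 1 moved the change from -0.68 to -1.76 for miR-497, from -0.42 to -0.86 for miR-15b, from -0.37 to -0.91 for miR-195, from -0.40 to -1.05 for miR-322 and from -0.20 to -0.46 for miR-16. The value of miR-497 also moved from -0.33 to -1.02 relative to the global mean and from -0.48 to -1.30 relative to miR-16, with adjusted p of 0.206 and 0.170 in limma.

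Without sample 7a, the change of miR-15a was -0.52 relative to U6, -0.55 relative to the global mean and -0.70 relative to miR-16, and limma gave an adjusted p of 0.995 relative to U6 and to miR-16 and an unadjusted p of 0.108 relative to the global mean. Relative to U6 and without sample 7a, the changes were -0.19 for miR-497, -0.11 for miR-322, -0.02 for miR-15b, -0.01 for miR-195 and 0.18 for miR-16. Without both cards, the change of miR-15a was -1.17 relative to U6, -0.80 relative to the global mean and -1.08 relative to miR-16. Its unadjusted p was 0.00331, 0.00413 and 0.00874 and its adjusted p 0.233, 0.216 and 0.276 in limma. The change of miR-497 was larger on each scale, at -1.28, -0.90 and -1.19, but less precise. Its unadjusted p was 0.0176, 0.0642 and 0.0269 and its adjusted p 0.233, 0.332 and 0.319 in limma. The exact permutation test gave p = 0.1 on each scale for miR-15a, the smallest that 3 against 3 samples allow. For miR-497 it gave 0.1, 0.2 and 0.2. The mean level of miR-15a was lower in MLC/SOD1G93A samples in each of these fits, with the largest and the smallest difference relative to U6. Relative to the global mean and without both cards, the change was 0.28 for miR-16, -0.09 for miR-15b, -0.17 for miR-195 and -0.39 for miR-322. Of all miRNAs tested without both cards, 21.0% were lower without overlap relative to U6, 9.66% relative to the global mean and 13.9% relative to miR-16, and miR-15a was among them on each scale, miR-15b relative to U6 and to miR-16, and miR-497 relative to U6. Here too, leaving out wild type 1 fixed the lack of overlap of these members in advance.

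The signal of other cell types was followed beside the miR-15a result, because blood cells are rich in the family. The leukocyte and microglia list had 5 of 6 members tested, of which 3 had a negative change relative to the global mean and 1 an unadjusted p under 0.05. That was miR-223, a miRNA of myeloid cells, with a log2 change of -1.45 (adjusted p = 0.427 in limma). The summed level of the list was 4.18 to 5.08 in wild type and 4.37 to 4.57 in MLC/SOD1G93A samples. miR-451, a miRNA of red blood cells, had a change of -1.12, and miR-486, the other red cell miRNA measured, one of 0.09. The summed level of the red cell list, for which 2 of 3 members are on the card, was 2.20 to 3.45 in wild type and 1.99 to 3.16 in MLC/SOD1G93A samples. Of the oligodendrocyte list, miR-338-3p had a change of -0.80 (unadjusted p = 0.0476 and adjusted p = 0.515 in limma), miR-219 one of -0.11 and miR-138 one of 0.44. The 4 neuronal miRNAs had changes from -0.25 to -0.10, and those of the endothelial and mural list lay between -0.32 and 0.00. The part of these cell types in the miR-15a values was not tested.

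The wider group and the genomic neighbours were fewer in data. miR-103, which lies in the genes Pank2 and Pank3, had a log2 change of 0.45 relative to the global mean with a standard error of 0.31 (adjusted p = 0.697 in limma), and miR-107, which lies in Pank1, had one of -0.08 with a standard error of 0.59. Their Ct values ranged from 27.74 to 29.75 and from 31.32 to 33.98. miR-503, the neighbour of miR-322, was measured in 3 wild type and 1 MLC/SOD1G93A samples and was not tested. Of the 16 listed neighbours and star strands, 6 are on the card and 4 were measured in any sample, 0 of them often enough to be tested. miR-351, which lies further along the miR-322 cluster, was measured in 4 wild type and 2 MLC/SOD1G93A samples at a Ct of 31.77 to 32.99.

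How closely the members moved with each other was described by the SD over the 8 samples of the difference between their Ct values, where a small SD means a constant distance. Points share the card, so this holds the variation of the cards as well. miR-15b and miR-195, from different chromosomes, kept the most constant distance of any pair in the family, with an SD of 0.185 cycles, and each was the 5th closest of 189 miRNAs to the other. miR-16 and miR-15b, which share a transcript, had an SD of 0.295 cycles, and miR-15b was the 11th closest to miR-16. miR-16 and miR-15a, which share another, had an SD of 0.933 cycles, and miR-15a was the 168th closest. The miR-16 assay cannot tell its genes apart, so neither pair isolates a single transcript. miR-195 and miR-497, the pair of chromosome 11, had an SD of 0.837 cycles, and miR-497 was the 166th closest to miR-195. Wild type 1 weighs on this SD. There the Ct of miR-195 minus that of miR-497 was -4.44. It was -2.45 to -2.09 in the other wild type samples and -3.65 to -2.33 in MLC/SOD1G93A samples.

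**Figure D5:**
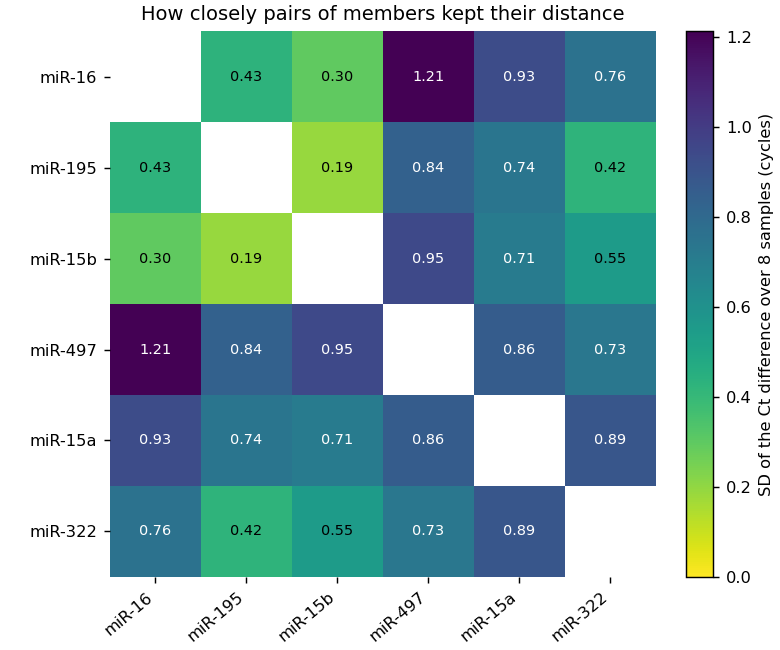
SD over 8 samples of the Ct difference between each pair of family members (colour and number, cycles; both axes list the members). The smallest value is that of miR-15b with miR-195 and the largest, 1.21 cycles, that of miR-16 with miR-497.

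Outside the family, the miRNAs closest to miR-16 were miR-30e, miR-31 and miR-382, with SDs of 0.211 to 0.226 cycles. Those closest to miR-15b were miR-137, miR-29c and let-7d (0.149 to 0.164 cycles), and those closest to miR-195 were miR-29c, miR-26a and let-7i (0.134 to 0.170 cycles). miR-15a was closest to miR-93, miR-7a and miR-34a (0.316 to 0.445 cycles). miR-322 was closest to miR-152, miR-143 and the rat assay for miR-346 (0.292 to 0.390 cycles), and miR-497 to miR-330, miR-652 and miR-145 (0.406 to 0.453 cycles). miR-143 and miR-145 are made from 1 transcript and typical of mural cells. miR-143 was among the 3 closest to miR-322 only, and miR-145 among the 3 closest to miR-497 only. The other miRNAs of the endothelial and mural list were not among the 3 closest to either member. A link of these members to a cell type was not tested.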

How the data were processed

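The authors ran TaqMan array card A on lumbar ventral cord RNA from 4 wild type FVB and 4 MLC/SOD1G93A mice, with 1 card per sample and SDS RQ Manager for the Ct values. The deposited files are a table of Ct values without normalization, a table on the log2 scale holding the Ct minus the mean of the 4 U6 wells, which is equal to that computed from the Ct table within 0.01, and a table that gives linear ratios between the groups as the authors' own comparison and was not used. The Ct table still holds 100 miRNA values over 35. The MLC/SOD1G93A columns carry numbers that the labels do not use and were assigned to the group only.

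Wells that were undetermined or had a Ct over 35 counted as missing. Log2 level was the reference Ct minus the Ct of the miRNA, with U6, the mean of the 190 miRNAs measured in all samples, or miR-16 as the reference. miRNAs measured in at least 3 samples of each group were fitted with limma 3.58.1 in R 4.3.3 (lmFit and eBayes, no covariates), with Benjamini-Hochberg adjustment over all miRNAs tested and a threshold of 0.05. Intervals are 95% intervals of limma. Single values were compared with two-sided exact permutation tests. The scripts were tested on simulated data.

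All members were named, and from other miRNAs the wider group, the genomic neighbours, the marker lists and the 3 with the smallest SD of the Ct difference to each member. The members and lists were chosen with earlier results of these data known. Alternatives were other Ct limits (32 and 40), rules for missing values, references and tests, the authors' normalized table, and leaving out each sample. Sequences and loci come from RefSeq tables (GRCm38.p6), since the card tables name no build. Cards hold no counts, and the number of samples and the shared reference limit the precision. The other card, the mRNA array and other assays of the study are not analysed here.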

Additional observations from a re-analysis of the deposited data

Results flagged for a closer look

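In 12 of the 56 groups of 4 values checked, 1 sample lay far from the other 3, by more than chance gives in about 1 in 20 groups. The groups share samples and references, so they are not independent. Most of these values belong to wild type 1 and sample 7a. No explanation was tested.

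In wild type 1, miR-497 had a Ct of 32.40 (the other wild type samples from 28.74 to 29.00), a level of -14.95 relative to U6 (others from -10.79 to -10.30) and of -3.40 relative to the global mean (others from -0.84 to -0.52). In the same sample the level relative to the global mean was -1.92 for miR-15a (others from -1.01 to -0.90) and 1.04 for miR-195 (others from 1.57 to 1.61).

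In sample 7a, miR-15a lay at -15.09 relative to U6 (other MLC/SOD1G93A samples from -12.18 to -11.99) and at -9.12 relative to miR-16 (others from -7.71 to -7.46). Relative to U6, miR-15b lay at -12.73 (others from -11.19 to -11.02) and miR-16 at -5.97 (others from -4.53 to -4.42) in this sample. Their Ct values there, 29.61 and 22.85, lay within the range of the other MLC/SOD1G93A samples. The mean U6 Ct of this card was 16.88 (others from 17.96 to 18.50), so these 2 levels reflect the reference. Its snoRNA135 Ct was 27.19 (others from 27.76 to 27.86). On the same card miR159a of plants, a negative control outside the comparisons, was detected at a Ct of 29.85, with no signal on the other 7 cards.

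Outside these cards, miR-16 had a Ct of 22.13 in wild type 4 (others from 22.87 to 22.94) and miR-15b a Ct of 28.98 in sample 8a (others from 29.61 to 29.69).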

How the results depend on the processing

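Of 268 changes of members computed under alternatives on the 3 scales, 241 kept their direction and side of the threshold and 27 reversed, 0 of them called. Some of the 241 could not differ. Every member had a value in every sample, so the rules for missing values could not alter its change. Nor could the Ct limit of 40 relative to U6 and to miR-16. The authors' normalized table repeats the U6 scale within 0.01. The Ct limit of 32 dropped the miR-497 value of wild type 1. It gave miR-497 changes of -1.76 relative to U6, -1.04 relative to the global mean and -1.30 relative to miR-16. In limma their unadjusted p was 0.0167, 0.0224 and 0.00690 and their adjusted p 0.980, 0.404 and 0.403. The change of miR-15a was negative under all of its alternatives, from -1.93 to -0.34 relative to U6, from -1.18 to -0.55 relative to the global mean and from -1.46 to -0.65 relative to miR-16. Its adjusted p in limma ranged from 0.130 to 0.998. In place of U6, snoRNA135 gave 0.075 for miR-15b, 0.30 for miR-16, 0.12 for miR-195 and 0.0875 for miR-322, and Y1 gave 0.52, 0.74, 0.57 and 0.54 for these and 0.26 for miR-497. With the mean of the members other than miR-16 as the reference, each of these members was part of its own reference. Their changes therefore add up to 0 by construction, and a rise of some mirrors a fall of others. They were -0.65 for miR-15a, -0.05 for miR-497, 0.21 for miR-15b, 0.26 for miR-195 and 0.22 for miR-322. Leaving out each sample in turn, or wild type 1 and sample 7a together, the changes relative to U6 ranged from -0.46 to 0.18 for miR-16 and from -1.05 to 0.0717 for miR-322. Relative to the global mean they ranged from -0.0202 to 0.28 for miR-16, from -0.17 to 0.0626 for miR-195 and from -0.39 to 0.20 for miR-322. Relative to miR-16 they ranged from -0.46 to 0.05 for miR-195 and from -0.67 to 0.22 for miR-322. The lowest values of miR-195 and miR-322 on the last 2 scales came from leaving out both samples, and leaving out 1 sample gave at the lowest -0.16 and -0.32 against the global mean and -0.44 and -0.59 against miR-16. The adjusted calls over all miRNAs were 0 to 1 relative to U6 on leaving out a sample (1, miR-451, without wild type 1) and 0 relative to the global mean and to miR-16 under every alternative. For the exact Mann-Whitney and permutation tests, 0.0286 is the smallest p that the samples allow, so these could hardly give an adjusted call. At an unadjusted p under 0.05, the counts over all alternatives ranged from 0 to 34 lower and 0 to 67 higher relative to U6, where Y1 as the reference gave the 67 and leaving out wild type 1 the 34. They ranged from 4 to 21 lower and 2 to 27 higher relative to the global mean, and from 1 to 28 lower and 1 to 9 higher relative to miR-16. The causes were not tested. The fit without wild type 1 and sample 7a together was chosen after seeing the data. The labels name no pairing between wild type and MLC/SOD1G93A samples, so the groups were compared without pairing. The mean Ct of Y1 differed by 0.84 cycles between the groups (exact permutation test, p = 0.114) and that of U6 by -0.10 cycles. The median standard error over all miRNAs was 0.66 with U6 and 0.32 with the global mean as the reference.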
